A study of Rattus norvegicus with 8 samples.

Results

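The regulators of mitochondrial biogenesis described here were 9 genes, taken by symbol from the 17055 rows of a raw count table: the coactivators Ppargc1a and Ppargc1b, the orphan nuclear receptors Esrra and Esrrg, the transcription factor Nrf1, the mitochondrial DNA factors Tfam and Tfb2m, and the lipid-sensing receptors Ppara and Ppard. All 9 were found, and all 9 were among the 10522 genes that passed the filter on low counts, with at least 91 counts in every library. The tissue was whole diaphragm, the main muscle of breathing, of 8 Sprague-Dawley rats sampled 16 weeks after chest surgery. In 4 rats the left anterior descending coronary artery had been tied off to cause a myocardial infarction (MI), and 4 Sham rats had the operation without the tie. Each rat gave 1 library, named by the number in its label, 1 to 4 for MI and 5 to 8 for Sham. A second number in the labels, of meaning not given, runs from 253 to 256 in 3 animals (MI replicates 1 and 2 and Sham replicate 5) and from 275 to 288 in the other 5, and these are the ranges of animal numbers below. No allele, transgene or drug is named for either group, and infarct size is not given in the sources used here.

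PGC-1α, the protein of Ppargc1a, and its relative PGC-1β (Ppargc1b) bind no DNA themselves. They are recruited by factors such as the oestrogen-related receptors ERRα (Esrra) and ERRγ (Esrrg), nuclear respiratory factor 1 (Nrf1) and the PPAR receptors, and raise transcription of nuclear genes for the respiratory chain and for fatty acid oxidation. Among the targets of this network are Tfam, which packages mitochondrial DNA and starts its transcription, and Tfb2m, which melts the promoter for the mitochondrial RNA polymerase. In skeletal muscle the network is known for its link to endurance training and to oxidative fibres.

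Libraries held 7941402 to 24967251 counts, and 3 counts, the floor below which a level was not read, came to 0.12 to 0.378 counts per 1000000 (CPM), which covers counting error only. All 10 slow-fibre and all 12 fast-fibre muscle markers were detected in every library, with summed levels of 25722 to 28919 CPM in MI and 23539 to 32491 CPM in Sham for the slow markers and 56838 to 88356 CPM and 62488 to 92350 CPM for the fast markers. Ucp1, which defines brown fat, a tissue rich in PGC-1α, had 0 counts in every library. Of the other brown-fat markers in the table, Cidea was at 21.0 to 36.0 CPM and Elovl3 had 3 to 15 counts per library. A part of brown fat in the levels was not tested. In bulk tissue such as this, fewer cells of a type and less RNA per cell cannot be told apart. Of 13 subunit genes encoded by mitochondrial DNA, 0 were found in the count table under the symbols searched. The respiratory chain below is therefore its nuclear part.

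The promoters of Ppargc1a, Ppara and Tfam are shown because these 3 members held a match to one of the motifs searched. Each is the 250 bases before the start of the gene from the RefSeq promoter table (build GRCr8), 5′ to 3′, and capitals mark a match to a searched motif. They lie at chr14:63634058-63634307, chr7:118712357-118712606 and chr20:17355123-17355372, in that order, each on the plus strand.
Ppargc1a: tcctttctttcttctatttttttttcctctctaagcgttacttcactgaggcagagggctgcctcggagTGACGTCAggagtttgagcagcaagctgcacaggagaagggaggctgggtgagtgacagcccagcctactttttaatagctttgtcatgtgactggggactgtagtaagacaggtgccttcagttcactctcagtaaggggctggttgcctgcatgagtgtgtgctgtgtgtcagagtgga
Ppara: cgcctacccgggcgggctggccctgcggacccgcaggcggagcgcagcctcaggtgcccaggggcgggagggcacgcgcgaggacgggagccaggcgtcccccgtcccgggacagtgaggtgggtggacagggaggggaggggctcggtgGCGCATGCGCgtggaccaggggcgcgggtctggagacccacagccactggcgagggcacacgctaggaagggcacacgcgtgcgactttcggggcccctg
Tfam: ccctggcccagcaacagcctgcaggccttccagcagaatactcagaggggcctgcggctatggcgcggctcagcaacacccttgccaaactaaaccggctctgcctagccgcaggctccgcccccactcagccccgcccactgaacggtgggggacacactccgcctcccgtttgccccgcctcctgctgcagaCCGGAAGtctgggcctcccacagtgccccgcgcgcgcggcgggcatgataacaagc

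The capitals in Ppargc1a are the cAMP response element TGACGTCA, which begins 181 bases before the start. Those in Ppara are a match to the nuclear respiratory factor motif, GCGCA and GCGC with 1 base of any kind between them, 100 bases before it, and those in Tfam the GA-binding protein motif CCGGAAG, 56 bases before it. The search covered both strands of windows reaching 50 bases past the start, and none of these matches overlaps another. The table held 11 such windows for 8 members and none for Ppard, and each of the 3 motifs was in 1 of the 11. Among all 33469 windows the nuclear respiratory factor motif was in 4.25%, the GA-binding protein motif in 8.75% and the cAMP element in 1.83%. Of 63 windows of respiratory chain genes, 14 (22.2%) held the first, 20 (31.7%) the second and 4 (6.35%) the third. An ERR motif, TCAAGGTCA, was in 0.433% of all windows, in 2 of the 63 and in no member window. The PPAR motif, a pair of AGGTCA copies with 1 base between them, was in 0.0538% of all windows and in none of the 63 or the 11. Matches are descriptions of letters and not of bound sites.

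The first comparison, MI against Sham, asks how diaphragm transcripts differ after an infarction, and no regulator of mitochondrial biogenesis passed. In the edgeR quasi-likelihood test 0 of the 9 members had an adjusted p under 0.05, where 0% of all 10522 genes did. At an unadjusted p under 0.05 the members numbered 0, against 8.14% of all genes, and 0 had groups that did not overlap, against 4.55%. The 3 members Esrrg, Tfam and Tfb2m had a log2 fold change above 0 and 6 below. Their median was -0.03, close to that of all genes (-0.01), of which 48.7% were above 0. DESeq2 called 14 genes of all and limma-voom 0, with 0 members among them, and edgeR gave 856 genes at an unadjusted p under 0.05.

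Neither coactivator passed the test. Ppargc1a was at 56.8, 55.6, 55.5 and 65.1 CPM in MI replicates 1 to 4 and at 60.8, 54.1, 53.7 and 73.4 CPM in Sham replicates 5 to 8. The groups overlapped, with 6 libraries between 53.7 and 60.8 CPM and 1 library of each group, MI replicate 4 and Sham replicate 8, above them. The log2 fold change was -0.05 ± 0.11 (SE), with a 95% interval of -0.30 to 0.19 (edgeR adjusted p = 0.907). Ppargc1b was at 32.3, 54.5, 51.4 and 39.4 CPM in MI and at 39.1, 44.9, 50.5 and 46.6 CPM in Sham. The MI libraries held both the lowest and the highest of the 8 values, and their SD was 10.4 CPM against 4.74 in Sham (n = 4 each). The difference was -0.03 ± 0.16 on the log2 scale, with an interval of -0.38 to 0.32 (edgeR adjusted p = 0.968).

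None of the receptors that PGC-1 proteins coactivate passed the test. Esrra was at 12.6, 19.3, 16.8 and 12.2 CPM in MI and at 14.3, 13.3, 19.5 and 17.7 CPM in Sham, so that high and low values occurred in both groups. Its log2 fold change was -0.08 ± 0.18, interval -0.47 to 0.31 (edgeR adjusted p = 0.905). Esrrg was at 36.2, 43.5, 34.7 and 32.6 CPM in MI and at 36.2, 30.8, 28.2 and 38.1 CPM in Sham. MI replicate 2 was its highest library and Sham replicate 7 its lowest, with the other 6 interleaved. It had the highest log2 fold change of the 9, 0.15 ± 0.12, interval -0.13 to 0.42 (edgeR adjusted p = 0.740), and 0.09 with a term for the 2 ranges of animal numbers.

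Ppara, the receptor that turns on fatty acid oxidation genes, was at 16.4, 17.0, 14.9 and 16.7 CPM in MI and at 17.4, 16.7, 16.3 and 21.5 CPM in Sham. Sham replicate 8 stood above the other 7, which lay between 14.9 and 17.4 CPM. The log2 fold change was -0.14 ± 0.12, interval -0.39 to 0.12 (edgeR adjusted p = 0.740), and -0.05 without that library. Ppard, the more widely expressed PPAR, was at 13.8, 17.5, 25.1 and 18.1 CPM in MI and at 18.1, 17.3, 27.4 and 18.5 CPM in Sham. One library of each group, MI replicate 3 and Sham replicate 7, stood above the rest. The difference was -0.14 ± 0.20 on the log2 scale, interval -0.58 to 0.31 (edgeR adjusted p = 0.860), and 0.05 without Sham replicate 7. In that library the summed level of 9 macrophage markers, all detected in every library, was 240.9 CPM against 92.6 to 164.6 CPM in the other 7. In MI replicate 3, the other library with high Ppard, it was 114.9 CPM. The part of these markers in the Ppard level was not tested.

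Nrf1 and the mitochondrial DNA factors did not pass either. Nrf1, which binds promoters of many respiratory chain genes, was at 11.8, 13.0, 13.1 and 10.5 CPM in MI and at 11.3, 12.2, 11.7 and 14.0 CPM in Sham, a log2 fold change of -0.02 ± 0.12, interval -0.29 to 0.25 (edgeR adjusted p = 0.977). Tfam was at 159.4, 165.4, 164.8 and 163.3 CPM in MI and at 150.5, 160.6, 152.8 and 157.2 CPM in Sham. Only Sham replicate 6 lay above the lowest MI library, so the groups overlapped at that 1 pair. The difference of 0.07 ± 0.06 on the log2 scale had the narrowest interval of the 9, -0.07 to 0.21 (edgeR adjusted p = 0.749). Tfb2m was at 126.5, 145.3, 144.7 and 156.3 CPM in MI and at 140.6, 137.0, 144.4 and 122.9 CPM in Sham, a log2 fold change of 0.07 ± 0.09, interval -0.12 to 0.26 (edgeR adjusted p = 0.827).

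**Figure D1:**
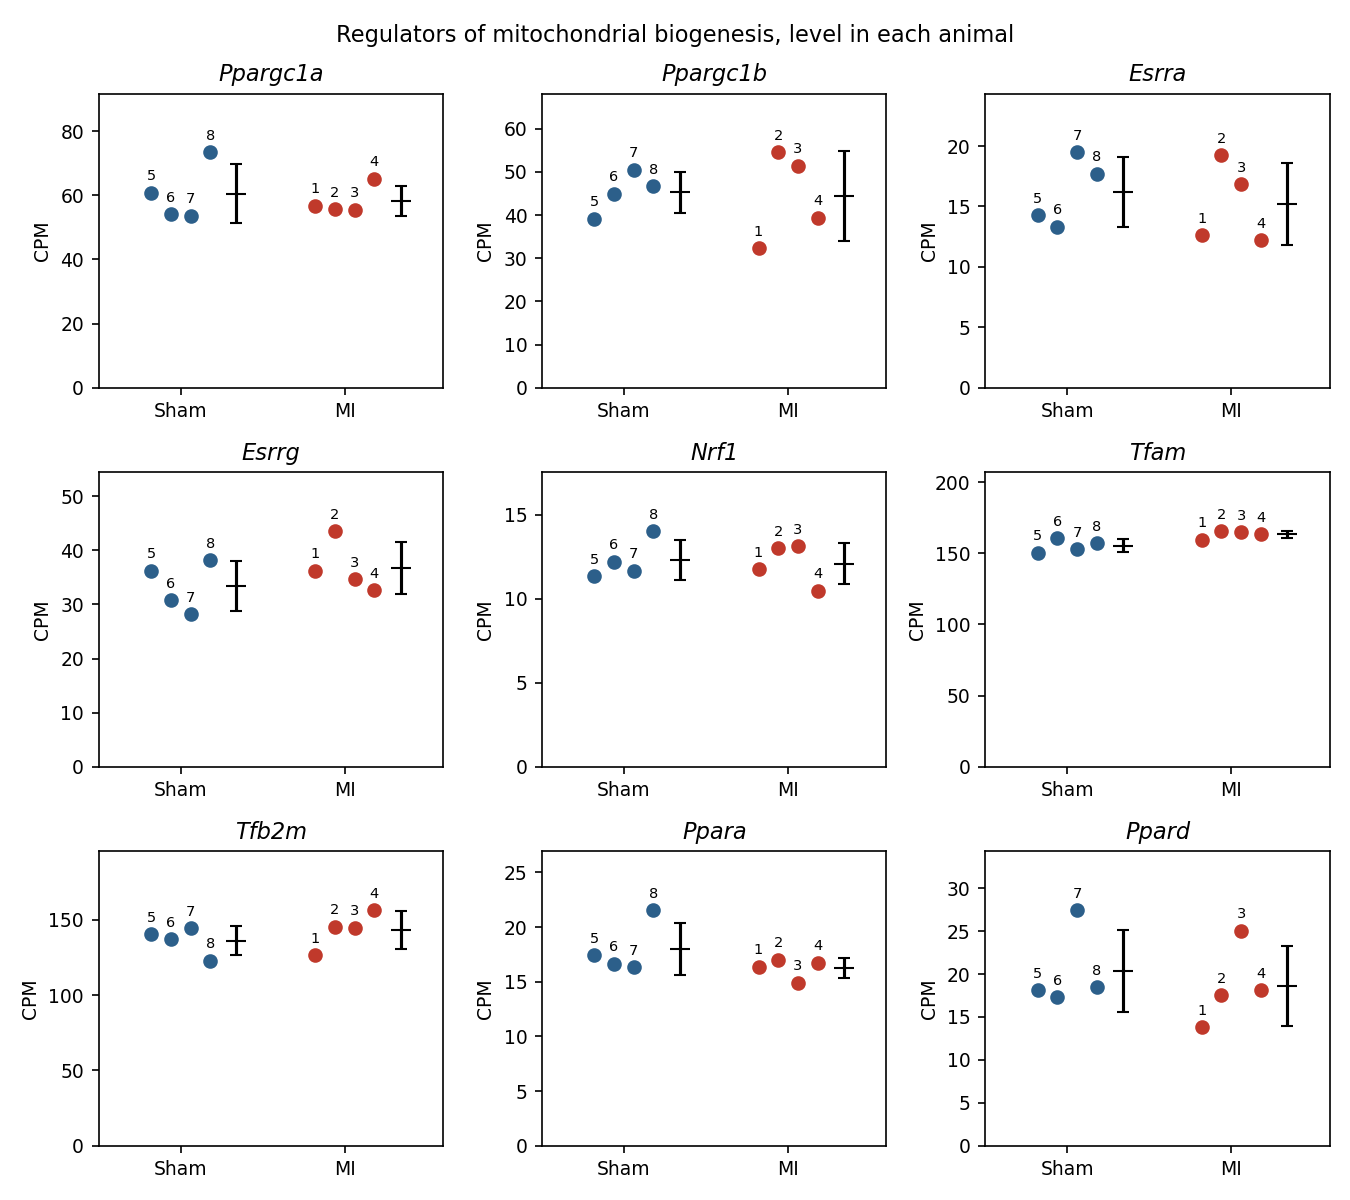
Level of each of the 9 regulators in CPM (vertical axes from 0) in Sham (blue) and MI (red) animals, numbered by replicate, with black bars for mean ± SD (n = 4 each). The groups overlapped in every panel, Tfam spanned only 150.5 to 165.4 CPM, and 1 library per group stood high for Ppard (25.1 and 27.4 CPM).

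The biological coefficient of variation, the spread between animals beyond counting noise as edgeR estimated it, was 8.87% for Tfam and 10.5% for Tfb2m, against 13.4% and 13.5% typical of genes at their level. Nrf1 (12.7% against 18.4%) and Ppara (12.6% against 17.4%) were also below the typical value, as were Ppargc1a (12.7% against 14.5%) and Esrrg (13.9% against 15.6%). Ppard, at 20.6% against 17.0%, Esrra, at 18.4% against 17.6%, and Ppargc1b, at 16.9% against 15.2%, were above it.

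The balance within pairs of related genes overlapped between the groups. The Ppargc1b level minus that of Ppargc1a was -0.42 ± 0.41 in MI and -0.41 ± 0.28 in Sham on the log2 CPM scale (SD, n = 4 each), and single animals ran from -0.81 in MI replicate 1 to -0.03 in MI replicate 2. Esrrg minus Esrra was 1.28 ± 0.22 in MI and 1.04 ± 0.35 in Sham, and its lowest value, 0.53, was in Sham replicate 7. Ppard minus Ppara was 0.17 ± 0.42 and 0.16 ± 0.41, with 0.74 in both MI replicate 3 and Sham replicate 7. These values depend on transcript length and serve only to compare animals.

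Genes around the members, from lists of the pathway, gave no call either. Of 55 upstream regulators and partners 47 were tested, and 0 passed edgeR in either direction, with 16 above 0, a median log2 fold change of -0.05, and 6 at an unadjusted p under 0.05 (4 lower and 2 higher, against 4.47% and 3.67% of all genes). Rxra, the dimer partner of both PPAR receptors, averaged 4.47 ± 0.595 CPM (SD, n = 4) in MI and 6.27 ± 0.869 CPM in Sham, and its log2 fold change was -0.49 ± 0.17. Nr4a1, an activity-induced nuclear receptor, had -0.45 ± 0.18, Pparg, the fat-cell PPAR, 0.45 ± 0.19, and Crtc2, a CREB coactivator, -0.35 ± 0.15. Each of these 4 had an edgeR adjusted p of 0.601. Pprc1, the third member of the PGC-1 family, had -0.23 ± 0.17 and Gabpa, the DNA-binding subunit of GA-binding protein, 0.14 ± 0.07, at 48.0 to 52.0 CPM in MI and 43.7 to 46.3 CPM in Sham, without overlap. Groups did not overlap for 2 of the 47 genes, Gabpa among them, both with MI higher. Of all genes 4.55% did not overlap, and 2.09% did so with MI higher. Nrip1, a corepressor of the ERR and PPAR receptors, had 0.09 ± 0.09, and Prkaa2, the muscle catalytic subunit of AMP-activated kinase, 0.17 ± 0.09.

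Genes that copy and transcribe mitochondrial DNA numbered 27 tested of 28, with 0 past the edgeR threshold, 15 above 0, a median of 0.05 and 1 at an unadjusted p under 0.05. That gene was Tefm, the elongation factor of mitochondrial transcription, with means of 84.3 ± 6.85 CPM in MI and 67.9 ± 6.99 CPM in Sham (0.31 ± 0.10, edgeR adjusted p = 0.601). The next by p were Mterfd2 (0.21), Fastkd2 (0.14) and Ssbp1 (0.18), which binds single-stranded mitochondrial DNA. The polymerase Polrmt, which Tfam and Tfb2m serve, had a log2 fold change of -0.23 ± 0.14, the DNA polymerase Polg -0.13 ± 0.12, and Tfb1m, the ribosomal RNA methylase related to Tfb2m, -0.02 ± 0.11.

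Targets of PGC-1 and ERR outside the subunits of complexes I to V, 27 tested of 28, had 0 past the edgeR threshold, 15 above 0 and a median of 0.02. The glucose carrier Slc2a4 averaged 587.2 ± 49.2 CPM in MI and 688.7 ± 14.9 CPM in Sham (-0.23 ± 0.08, edgeR adjusted p = 0.601). Cycs, cytochrome c, had 0.26 ± 0.11, Ckmt2, the mitochondrial creatine kinase of muscle, 0.19 ± 0.09, Mdh2, a citric acid cycle enzyme, 0.15 ± 0.07, and citrate synthase, Cs, 0.05 ± 0.08.

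PPAR targets, 18 tested of 20, had 0 past the edgeR threshold, 9 above 0 and a median of -0.0041. Fabp3, the muscle fatty acid carrier, had 0.28 ± 0.13, Plin5, a lipid droplet protein, -0.47 ± 0.29, and Cd36, a fatty acid transporter, 0.29 ± 0.19. Some PPAR targets varied widely between animals. Pdk4, a kinase that shuts off glucose oxidation, was at 196.5, 530.6, 700.6 and 1024 CPM in MI and at 973.2, 535.0, 681.4 and 428.2 CPM in Sham, with a log2 fold change of -0.10 ± 0.48. Ucp3, a mitochondrial carrier, was lowest in the same library, MI replicate 1, at 87.1 CPM against 158.7 to 323.0 CPM in the other 7. In that library Ppara was at 16.4 CPM, within the range of the others, and Ppard at 13.8 CPM, the lowest. Cpt1b, the fatty acid entry enzyme of muscle mitochondria, was at 323.5 CPM there and 432.7 to 493.1 CPM elsewhere.

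**Figure D2:**
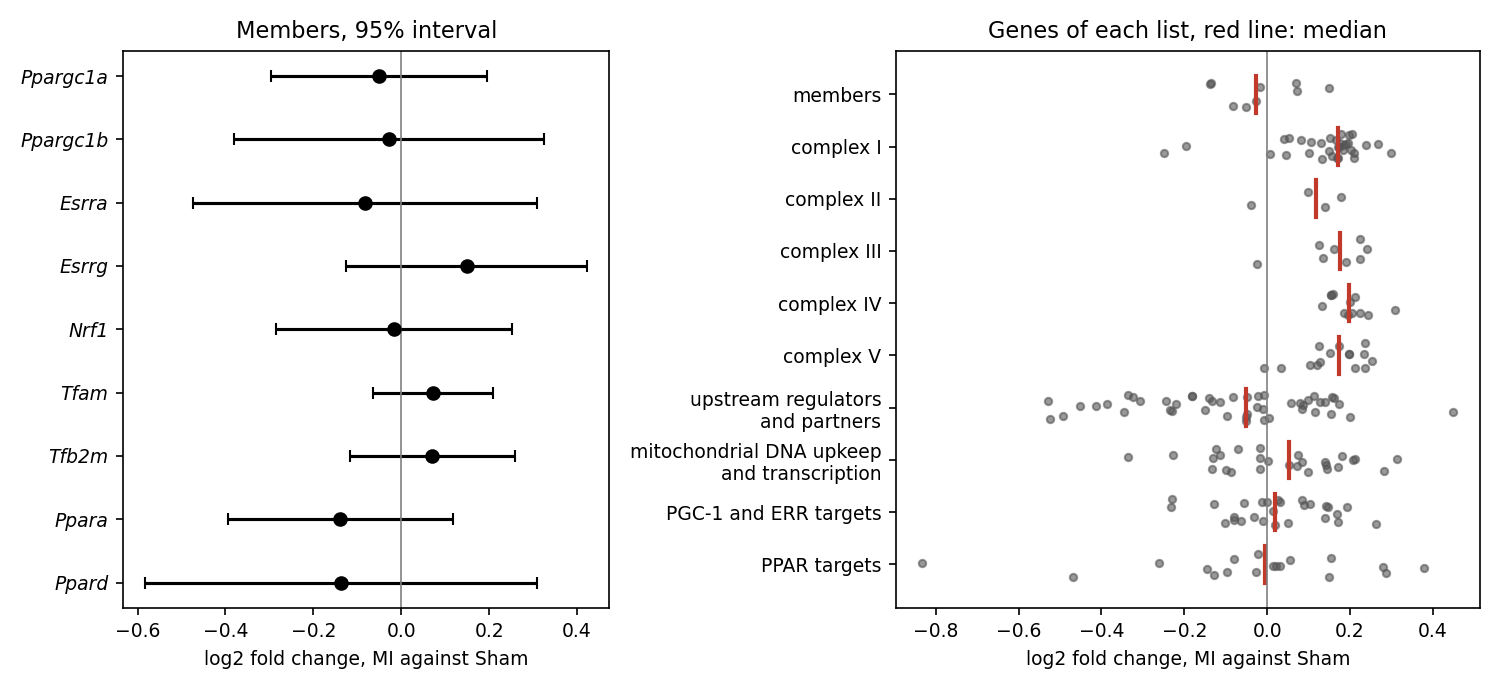
Left, log2 fold change of each regulator in MI against Sham (horizontal axis) with its 95% interval, and right, the fold changes of the tested genes of each list (points) with their median (red line). All 9 intervals on the left hold 0, and the medians of complexes I to V, from 0.12 to 0.20, lie above that of the regulators, -0.03.

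Each regulator was also related to the nuclear respiratory chain of the same animal. This level was the mean log2 CPM of 72 tested subunit genes of complexes I to V, of 80 listed. It was 8.81, 8.71, 8.72 and 8.74 in MI replicates 1 to 4 and 8.70, 8.55, 8.53 and 8.61 in Sham replicates 5 to 8, so all 4 MI libraries lay above Sham, replicate 2 above Sham replicate 5 only in the third decimal place. As an unscaled share of all counts, the 73 listed genes in the table made up 6.14, 6.33, 5.89 and 6.34% in MI. In Sham they made up 6.01, 5.29, 5.66 and 5.83%. By this share MI replicate 1 was not the highest, and MI replicate 3 lay below Sham replicate 5. Of the 72 genes, 67 had a log2 fold change above 0 (48.7% of all genes), with a median of 0.17, and 0 passed edgeR. At an unadjusted edgeR p under 0.05 there were 30, all higher in MI (3.67% of all genes). The groups did not overlap for 15, all with MI higher (2.09% of all genes). By complex the medians were 0.17 for complex I (31 of 33 above 0), 0.12 for II (3 of 4), 0.18 for III (7 of 8), 0.20 for IV (12 of 12) and 0.17 for V (14 of 15). The median of 0.17 lay inside the 95% interval of 8 regulators and above that of Ppara. Red blood cell markers were also higher in MI: 6 of 6 tested were above 0, DESeq2 called 5 of them (Alas2, Hba1, Hba2, Hbb and Hbb-b1) and their summed level was 368.4 to 805.2 CPM in MI against 235.6 to 378.2 CPM in Sham, with no marker in the table at 0. Over the 8 animals the median r of the 6 tested markers with the respiratory chain level was 0.59, against -0.03 for all genes. Within MI, replicate 1 had the highest mean log2 CPM of the respiratory chain and the lowest red cell sum, 368.4 CPM, below the 378.2 CPM of Sham replicate 8. The part of these markers in the respiratory chain level was not tested.

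The subunits with the smallest p in each complex had log2 fold changes from -0.04 for Sdha to 0.31 for Cox5a. In complex I, the NADH dehydrogenase, Ndufab1 was at 715.4 against 594.3 CPM (log2 fold change 0.27), with Ndufb5, Ndufs5 and Ndufa1 at 0.24, 0.30 and 0.21. In complex II, succinate dehydrogenase, Sdhd, Sdhc, Sdhb and Sdha had 0.18, 0.14, 0.10 and -0.04. In complex III Uqcrfs1, the iron-sulphur subunit, had 0.23, Uqcrb 0.24, Uqcrc2 0.19 and Uqcrq 0.22. In complex IV, cytochrome c oxidase, Cox5a was at 955.4 against 771.9 CPM (0.31), with Cox8b, Cox6c and Ndufa4 at 0.24, 0.21 and 0.19, and in ATP synthase Atp5j had 0.25, Atp5l 0.24, Usmg5 0.24 and Atp5c1 0.21. The lowest edgeR adjusted p among them was 0.601, and DESeq2 called Cox5a (adjusted p = 0.0400).

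No regulator passed the test of its relation to the respiratory chain level across the 8 animals. Pearson's r was tested with an exact two-sided permutation test and adjusted by Benjamini-Hochberg over all 10522 genes, and 0 of 9 members passed, as did 0% of all genes. At an unadjusted p under 0.05 the members numbered 0, against 15.5% of all genes (1628). By Spearman's rho 13 genes passed after adjustment, 0.124% of all, none a member. Points share their libraries and scaling, so levels within an animal are not independent measurements. The ranges of animal numbers hold 3 and 5 animals, under the 6 needed for a value within each.

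Ppargc1a, the coactivator most tied to mitochondrial biogenesis, had r = 0.10 (exact permutation p = 0.824, adjusted 0.938) and rho = 0.43 (exact permutation p = 0.299). The animal with the highest respiratory chain level, MI replicate 1, had Ppargc1a at 56.8 CPM, and the animal with the highest Ppargc1a, Sham replicate 8, had a respiratory chain level of 8.61. Without the animals farthest from the median of Ppargc1a, MI replicate 4 and Sham replicate 8, r was 0.58, so the value rests on them. Ppargc1b lay in the opposite direction, with r = -0.53 (exact permutation p = 0.178, adjusted 0.510) and rho = -0.33 (exact permutation p = 0.428), and -0.45 without its farthest animals. It was lowest, 32.3 CPM, in MI replicate 1, where the mean log2 CPM of the respiratory chain was highest, and 63 of 72 subunits had an r below 0 with it. Without MI replicate 1 its r was -0.20, and without MI replicate 2 it was -0.69. With the summed counts of the respiratory chain genes as the level, its r was -0.30.

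The ERR receptors had r of opposite sign, and neither passed. Esrra had r = -0.43 (exact permutation p = 0.263, adjusted 0.603) and rho = -0.62 (exact permutation p = 0.115), and -0.11 without its farthest animals, MI replicate 4 and Sham replicate 7. With 1 library left out it ran from -0.72 without Sham replicate 6 to -0.21 without Sham replicate 7. With library totals alone it was -0.15, and with totals without the respiratory chain genes -0.13. Esrrg had the highest r of the 9, 0.54 (exact permutation p = 0.168, adjusted 0.501), with rho = 0.31 (exact permutation p = 0.462) and 0.32 without its farthest animals. It was lowest in Sham replicates 7 and 6, at 28.2 and 30.8 CPM, where the respiratory chain level was also lowest, and its r was above 0 with 71 of 72 subunits. Without Sham replicate 7 its r was 0.27 and without Sham replicate 8 it was 0.66. With the ranges of animal numbers removed it was also 0.27.

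Neither Nrf1 nor the factors of mitochondrial DNA passed. Tfam had r = 0.37 (exact permutation p = 0.359, adjusted 0.682) and rho = 0.45 (exact permutation p = 0.267), and 0.32 without its farthest animals. After the group means were removed from both levels it was -0.65 (exact permutation p within groups = 0.142). Tfb2m had r = 0.05 (exact permutation p = 0.905, adjusted 0.966) and rho = 0.26 (exact permutation p = 0.536), with 0.54 without its farthest animals. Nrf1 had r = -0.22 (exact permutation p = 0.602, adjusted 0.829) and rho = -0.14 (exact permutation p = 0.752), with 0.14 without its farthest animals.

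Ppara had r = -0.26 (exact permutation p = 0.582, adjusted 0.818) and rho = -0.12 (exact permutation p = 0.793), with 0.20 without its farthest animals. Ppard had r = -0.51 (exact permutation p = 0.189, adjusted 0.523) and rho = -0.38 (exact permutation p = 0.360), with -0.59 without its farthest animals. With 1 library left out it ran from -0.74 without MI replicate 3 to -0.19 without Sham replicate 7. With group means removed, which leaves how animals of 1 group differ, Ppargc1b was at r = -0.74 (exact permutation p within groups = 0.00694, adjusted 0.331). It was the 1 member at an unadjusted p under 0.05 in that test, against 9.87% of all genes.

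**Figure D3:**
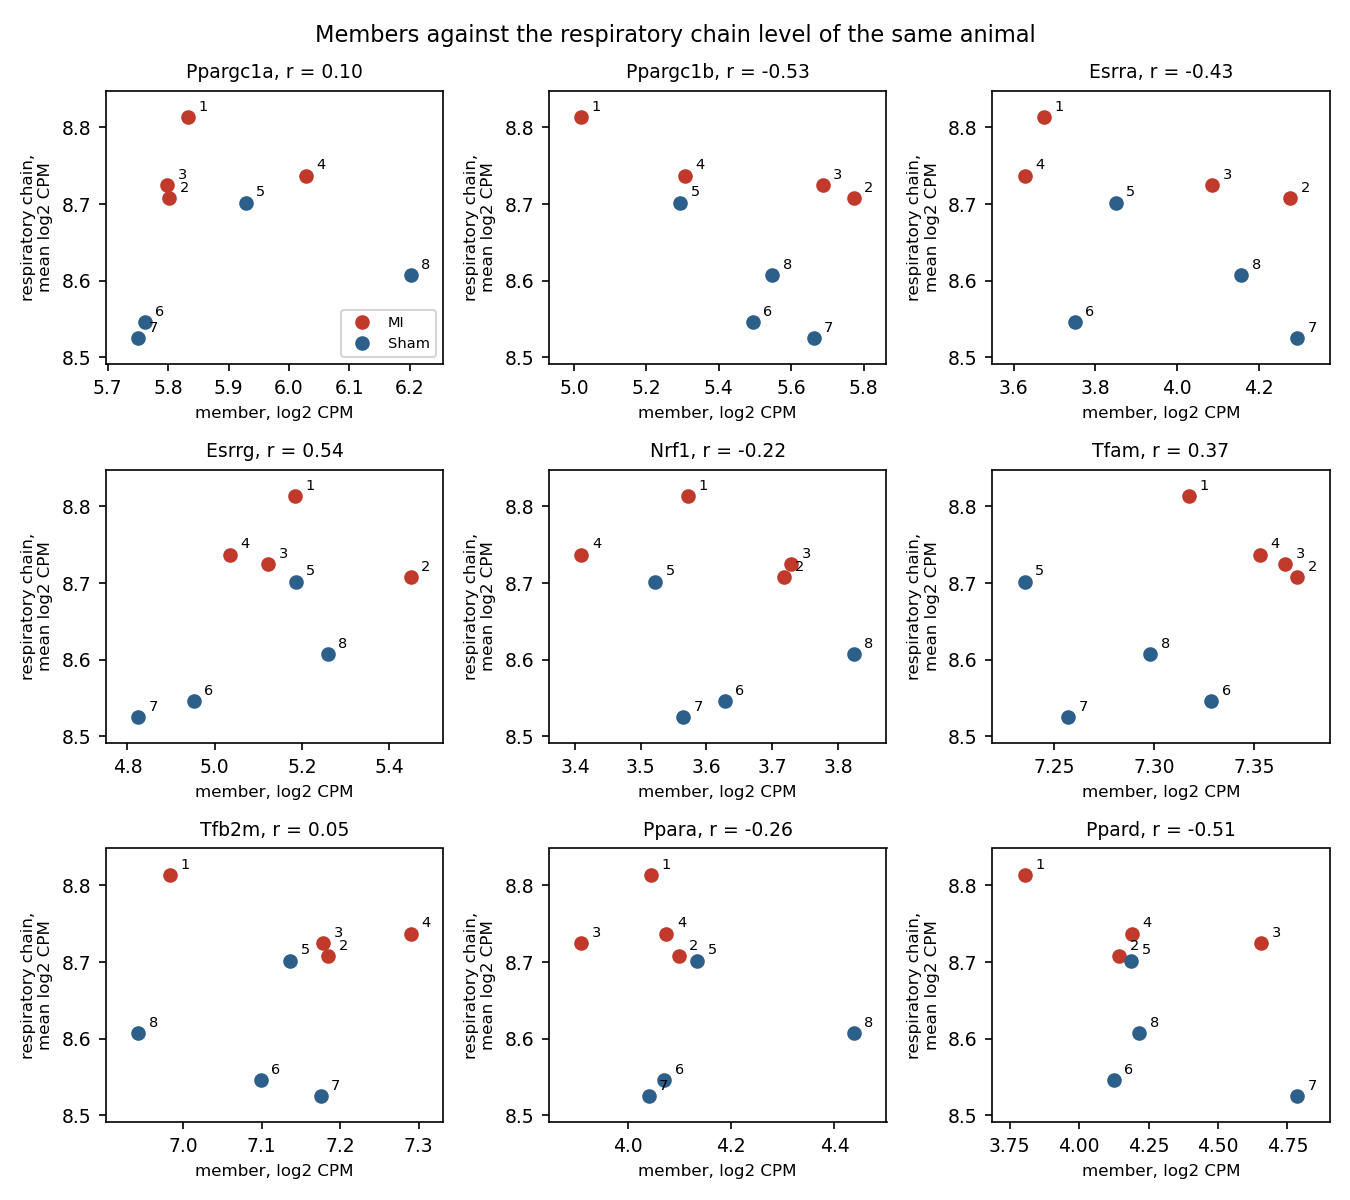
Level of each regulator (horizontal axes, log2 CPM) against the mean log2 CPM of 72 respiratory chain genes (vertical axes) in the same animal, MI red and Sham blue, numbered by replicate. MI replicate 1 has the highest respiratory chain level, 8.81, with the lowest Ppargc1b and Ppard, and no panel passed the exact permutation test after adjustment.

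**Figure D4:**
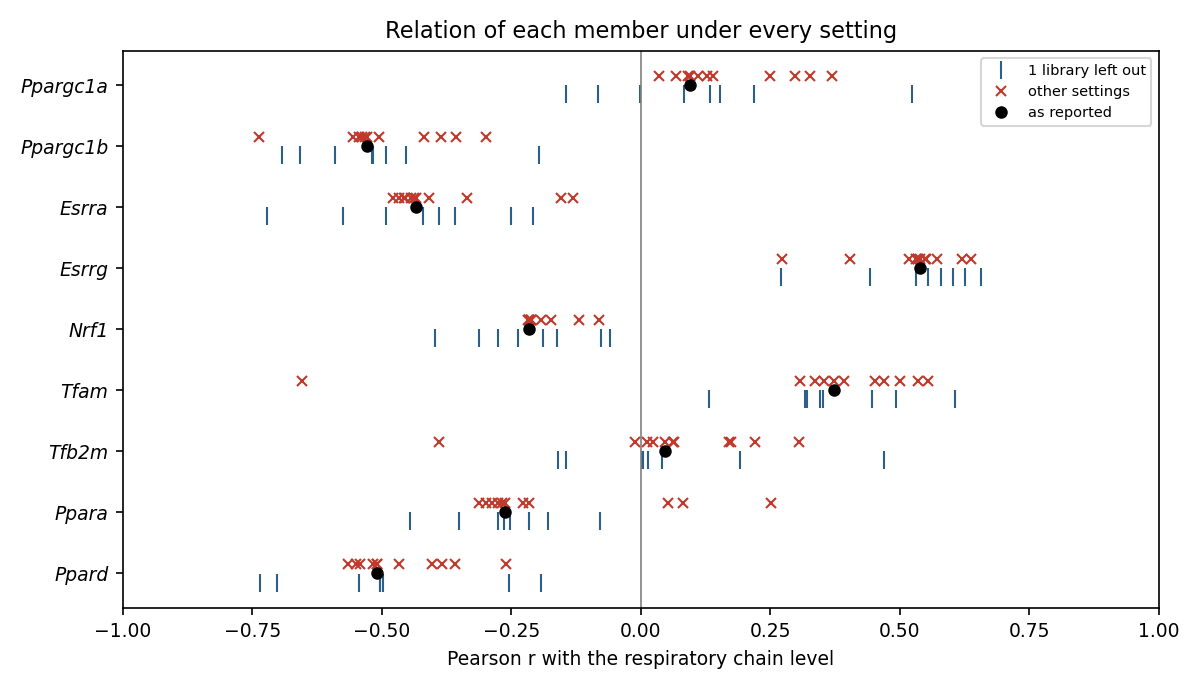
Pearson's r of each regulator with the respiratory chain level (horizontal axis) as reported (black), with 1 library left out (blue) and under the other settings (red). Ppargc1b, Esrra, Nrf1 and Ppard are below 0 and Esrrg above 0 at every mark, while Ppargc1a, Tfam, Tfb2m and Ppara have marks on both sides.

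Of 36 pairs 21 had r above 0, with a median of 0.16, and 0 passed after adjustment over all genes. At an unadjusted p under 0.05 there were 2 pairs, against 6.75% of all genes set against a member. By member that share was 5.49% for Ppargc1a, 12.4% for Ppargc1b, 10.8% for Esrra, 3.78% for Esrrg, 7.13% for Nrf1, 2.9% for Tfam, 5.98% for Tfb2m, 4.82% for Ppara and 7.43% for Ppard. Ppargc1b and Esrra, a coactivator and its receptor, had r = 0.84 (exact permutation p = 0.0104, adjusted over all genes 0.350) and rho = 0.76 (exact permutation p = 0.0368). Both were above their medians in MI replicates 2 and 3 and Sham replicates 7 and 8 and below them in the other 4 animals, and r was 0.80 without the animals farthest from the median of Ppargc1b. The other pair was Ppargc1a and Ppara, with r = 0.82 (exact permutation p = 0.0247, adjusted 0.864) and rho = 0.74 (exact permutation p = 0.0458). Sham replicate 8 was highest for both, and without it and MI replicate 4 r was 0.43. The coactivators themselves had r = -0.20 (exact permutation p = 0.624) and rho = -0.40 (exact permutation p = 0.327).

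**Figure D5:**
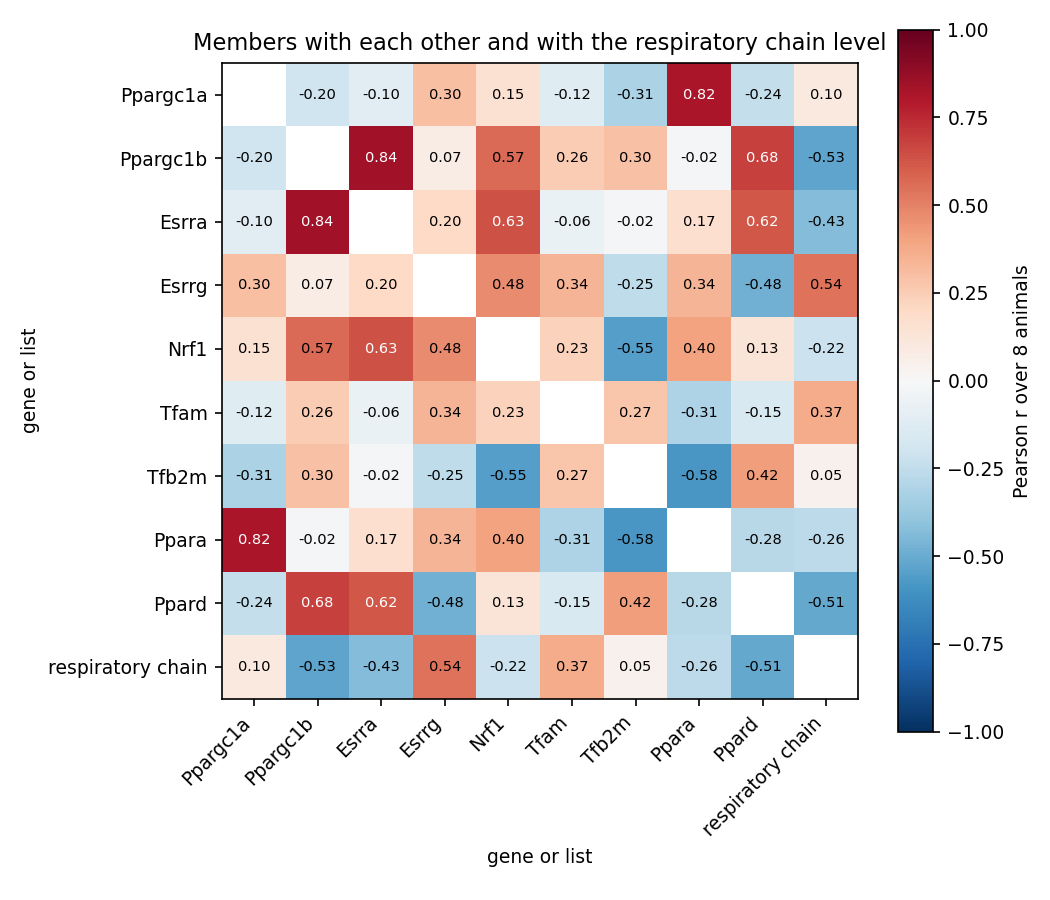
Pearson's r over 8 animals between the levels (log2 CPM) of each pair of regulators and of each with the respiratory chain level, from blue (-1) to red (1). The 2 darkest red pairs are Ppargc1b with Esrra (0.84) and Ppargc1a with Ppara (0.82).

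Levels of the slow-fibre markers were also set beside the members, a comparison chosen after the values were seen. Their sum was highest in Sham replicates 8 and 5, at 32491 and 30766 CPM, and lowest in Sham replicates 6 and 7, at 23539 and 23945 CPM. Ppargc1a (r = 0.78, exact permutation p = 0.0181, rho = 0.86, exact permutation p = 0.0107), Esrrg (r = 0.73, exact permutation p = 0.0398, rho = 0.83, exact permutation p = 0.0154) and Ppara (r = 0.73, exact permutation p = 0.01999, rho = 0.83, exact permutation p = 0.0154) were the 3 of 9 members at an unadjusted p under 0.05 against 4.2% of all genes. None passed after adjustment over all genes (exact permutation, adjusted p = 0.99997 for each), and without Sham replicates 5 and 8 r was 0.51 for Ppargc1a, 0.86 for Esrrg and 0.24 for Ppara. The slow myosin Myh7, itself 1 of the 10 markers, had r = 0.34 with their sum (exact permutation p = 0.419) and rho = 0.38 (exact permutation p = 0.360), and -0.13 without Sham replicates 5 and 8. The respiratory chain level had r = 0.30 with the same sum (exact permutation p = 0.466) and rho = 0.21 (exact permutation p = 0.619), and 0.73 without Sham replicates 5 and 8. The 12 fast-fibre markers gave r = -0.55 for Ppargc1a, -0.50 for Esrrg and -0.48 for Ppara, with exact permutation p of 0.148, 0.206 and 0.246, and rho of -0.57, -0.57 and -0.64, with exact permutation p of 0.151, 0.151 and 0.0962. By r, 0 members had an unadjusted p under 0.05 with the fast-fibre markers, against 5.05% of all genes. The part of fibre makeup in the levels of the regulators was not tested.

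Sequencing depth moved with 1 member. Ppargc1a had r = -0.87 with the log2 total count of the library (exact permutation p = 0.00196, adjusted over all genes 0.949) and rho = -0.86 (exact permutation p = 0.0107), and -0.84 without Sham replicates 7 and 8. The smallest libraries, Sham replicate 8 and MI replicate 4, had the highest Ppargc1a. It was the 1 member at an unadjusted p under 0.05, against 4.52% of all genes, and the part of depth in its level was not tested. The other 8 members had r between -0.51 and 0.32.

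The promoter windows of the 8 matched members had a median GC content of 69.8%, against 60.7% over the 8476 tested genes with a window, and ran from 50.3% for Ppargc1a to 77.0% for Ppargc1b. The slope of gene levels on promoter GC, in log2 CPM per 10 points, was lowest in MI replicates 4 and 1 (-0.03 in both) and highest in MI replicate 2 and Sham replicate 8 (0.02 in both). Esrra, lowest in MI replicates 4 and 1 at 12.2 and 12.6 CPM, had r = 0.80 with this slope (exact permutation p = 0.0184, adjusted over all genes 0.291) and rho = 0.86 (exact permutation p = 0.0107). It was the 1 member at an unadjusted p under 0.05, against 14.5% of all genes, and without MI replicates 1 and 4 its r was 0.51. Ppargc1b had r = 0.69 (exact permutation p = 0.0589, adjusted 0.360) and rho = 0.60 (exact permutation p = 0.132), with 0.18 without those animals. Nrf1 had r = 0.68 (exact permutation p = 0.0687, adjusted 0.371) and rho = 0.48 (exact permutation p = 0.243), with 0.32 without them. The respiratory chain level had r = -0.59 (exact permutation p = 0.126) and rho = -0.62 (exact permutation p = 0.115), with -0.11 without them. The other 6 members had r from -0.27 to 0.47. Over all 8 animals r with the slope was above 0 for Ppargc1b and Esrra and below 0 for the respiratory chain level. Without MI replicates 1 and 4 these values were 0.18, 0.51 and -0.11, and 0 of all genes passed after adjustment. The slope is made from the same libraries, and the part of base composition in these relations was not tested.

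For each member up to 3 genes with the most similar pattern over the 8 animals, among 6618 genes with a mean of at least 10 CPM, were taken by Pearson's r as a description. For Ppargc1a they were Inpp5k, Nufip1 and Acss1, a mitochondrial acetyl-CoA synthetase (r from 0.90 to 0.91). For Ppargc1b they were Mapkap1, Ogdh, a citric acid cycle enzyme at 500.1 CPM that the target list above also holds, and Glyr1 (0.94 to 0.97). For Esrra they were Gnb2, Fkbp4 and Raly (0.96 for each), and for Esrrg Smad2, Nceh1 and Pop7 (0.92 to 0.94). Nrf1 was nearest to Stub1, Asb16 and Nubp2 (0.93 to 0.95), Tfam to Synj1, Sesn3 and Ptpn21 (0.91 to 0.97) and Tfb2m to Atraid and Sparcl1 (0.96 for each). Ppara was nearest to Zfp710, Snrnp40 and Pik3c2b (0.92 to 0.95), and Ppard to Jtb, Fbxo6 and Ddah2 (0.91 to 0.95). None of the 72 subunits of the respiratory chain was among these genes. With at most 3 of 6618 genes taken per member, this absence says nothing of how the subunits relate to the members.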

How the data were processed

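RNA of 8 diaphragms was made into libraries with the SMARTer Ultra Low input kit, which does not mark strand, per the labels' protocols. The authors deposited raw counts for each gene symbol and animal. The submitters' processing notes name bcl2fastq, STAR 2.5.0a, TopHat2, TopHat, Cufflinks and build rn5. Counting program and annotation: not given in the sources used here. Nothing says how animals were paired or batched, and p-values measure the spread between these animals. Pairs of libraries within a group differed beyond sampling noise (chi-square per degree of freedom 12.1 to 44.3).

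Genes were tested with edgeR 4.0.16 in R 4.3.3 (TMM, filterByExpr, robust quasi-likelihood F test, two-sided, Benjamini-Hochberg over 10522 genes, threshold 0.05). Intervals are 95% and the SE of a fold change came from the F statistic. Levels are TMM-scaled CPM, and relations used log2 CPM with a prior count of 2, with all pairings of 8 animals. A subunit was never compared with a mean that held it, but the alternative with summed counts kept each subunit in the sum. Alternatives were RLE size factors, library totals, both filters, DESeq2 1.42.0, limma-voom (limma 3.58.1), no robust estimation, animal number range, other respiratory chain levels and each library left out. No length table was at hand, so length terms were not run and levels of different genes were not compared.

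The members, lists and tests were chosen with earlier results of these data known. All members are named, with up to 4 genes of each list by smallest p and some named in advance, and up to 3 nearest genes per member. A few genes that the rule names are not reported here. Relations to fibre markers, depth and promoter GC were added after seeing the data. On simulated data from these means, with 200 of 10522 genes changed, edgeR recovered 34.3% of 1.5-fold, 80.3% of 2-fold and 96.8% of 3-fold changes, with 6 false calls. Each simulated gene had the spread typical of its level, so recovery for genes that vary more or less than that was not tested.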

Additional observations from a re-analysis of the deposited data

Results flagged for a closer look

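Within the 4 MI animals, Ppargc1a in replicate 4, at 65.1 CPM, stood apart from the other 3 by 0.864 of the range of the group, above the 95% limit of Dixon's test for 4 values. Within the 4 Sham animals, Ppard in replicate 7, at 27.4 CPM, stood apart by 0.887 of the range. The check covered 20 groups of values, and chance flags about 1 in 20.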

How the results depend on the processing

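No paired analysis was possible because the labels number the MI animals 1 to 4 and the Sham animals 5 to 8, with no shared number. No member passed the threshold in any of 16 alternatives for MI against Sham (adjusted p from 0.579 to 0.999) or 19 for the relation to the respiratory chain level (0.319 to 0.9997). Over all genes, DESeq2 called 14 for MI against Sham, and leaving out 1 library gave 0 to 1, with 1 gene called without MI replicate 1 and 1 without MI replicate 3. For the relation, 12 genes passed with library totals alone and 13 with totals without the respiratory chain genes, and 0 with any 1 library left out. The number of genes related to a member was 0 with RLE size factors and with a prior count of 0.5.

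Among fold changes, Esrrg, Tfam, Tfb2m and Ppara kept their sign in all 16 alternatives. With 1 library left out Ppargc1a ran from -0.11 to 0.052, Ppargc1b from -0.15 to 0.095, Esrra from -0.22 to 0.019, Nrf1 from -0.061 to 0.045 and Ppard from -0.31 to 0.046. Nrf1 was at 0.0084 with limma-voom, and Ppargc1b at 0.016 with a term for animal number range. For the relation, r with 1 library left out ran from -0.15 to 0.52 for Ppargc1a and from -0.16 to 0.47 for Tfb2m. With group means removed r was -0.65 for Tfam, -0.39 for Tfb2m and 0.25 for Ppara. Ppara was at 0.052 with library totals alone and 0.082 with totals without the respiratory chain genes, and Tfb2m at -0.011 with the filter of 1 CPM in 4 libraries. In the same order, these scalings gave -0.39 and -0.36 for Ppargc1b, -0.15 and -0.13 for Esrra, and -0.12 and -0.08 for Nrf1. For Ppard they gave -0.40 and -0.38, for Ppargc1a 0.30 and 0.33, and for Esrrg 0.62 and 0.64. For Tfam they gave 0.47 and 0.53, and for Tfb2m 0.17 and 0.22. The cause was not tested. Members had 91 to 3961 counts per library, and how far counting error limits each value was not tested.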
